A study of Homo sapiens with 6 samples.

Results

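Cholesterol and fatty acids are built from acetyl-CoA by enzymes that are largely under the control of the sterol regulatory element-binding proteins (SREBPs). To describe this program in the core and the margin of a breast tumor, RNA-seq values were taken for 30 genes by name: the SREBP genes SREBF1 and SREBF2, the SREBP escort SCAP, its retention factor INSIG1, the sterol carrier STARD4, 18 enzymes from acetoacetyl-CoA to cholesterol and 7 enzymes of fatty acid synthesis, elongation and desaturation. The genes were named for their known function, and no measured value enters the rule. The list was, however, chosen with earlier results of these data known, so it was not tested as a set. They make up 30 of the 60671 annotated genes in the matrix and 30 of the 13861 genes that passed the filter on low values, so all 30 members were tested.

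The tumors grew from MDA-MB-231, a cell line of human origin derived from triple-negative breast cancer. Wild-type (WT) cells of this line, mixed with Matrigel, had been injected orthotopically into the mammary fat pads of female NSG mice, an immunodeficient strain, at an age of 6 to 8 weeks. Tissue came from the tumor core (TC, 3 samples) or the tumor margin (TM, 3 samples), with no other treatment or genetic change in either group, so the groups differ in the zone sampled and share the cell line, the host strain and the site. The study speaks of 3 mice per group without saying whether a TC and a TM sample came from one tumor, and nothing else says that replicates were separate animals, so the p-values measure the spread between these samples. NSG hosts lack T, B and natural killer cells but keep fibroblasts, vessels, fat and muscle, and no step was described that separates mouse from human reads.

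Values are in TPM, a transcript level per unit of length that is set to the same sum in every sample, so levels may be compared between genes, but the sequencing depth is unknown. A difference is the TC mean less the TM mean of log2(TPM + 1). Differences come from limma, a linear model fitted on all 13861 genes, with Benjamini-Hochberg adjusted p-values. The tumor-cell markers fitted the label. VIM lay between 3797 and 5283 TPM, CD44 between 197 and 267 TPM and KRT8 between 356 and 447 TPM, whereas ESR1, PGR and CDH1 did not exceed 0.36 TPM in any sample. TPM values were on the whole lower in TC: the median difference over all genes was -0.14. Median-of-ratios rescaling, which levels the middle of the expressed genes across samples, took it to 0.05. Member differences are therefore also given relative to the all-gene median.

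SREBPs are made as inactive precursors in the membrane of the endoplasmic reticulum. When sterols are scarce, SCAP carries the precursor to the Golgi, where proteases free the active factor. When sterols are plentiful, INSIG proteins hold SCAP back. The active factor binds sterol regulatory elements close to the start of its target genes, mostly beside binding sites of NF-Y (CCAAT) and SP1 (GGGCGG). SREBP-2 is known chiefly for cholesterol genes and SREBP-1 for fatty acid genes. Breast cancer cells are known for active lipid synthesis, and the mammary fat pad around a tumor is rich in stored lipid.

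The promoter letters are shown for the members whose TC and TM values do not overlap and that have a single RefSeq start. SREBF2 is shown as well. Among the 26 members with a promoter sequence on hand, it alone had a match to TCACNCCAC, the searched form of the sterol regulatory element. Each line holds the 160 bases just upstream of the transcription start on GRCh38.p14, written 5′ to 3′ on the gene's own strand. Capitals mark TCACNCCAC and CCAAT on either strand, where the latter reads ATTGG when reversed.
SREBF1 (chr17:17836987-17837146, minus strand): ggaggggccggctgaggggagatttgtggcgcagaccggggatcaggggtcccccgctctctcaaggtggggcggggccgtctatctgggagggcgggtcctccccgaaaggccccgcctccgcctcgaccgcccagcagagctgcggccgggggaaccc
SREBF2 (chr22:41832945-41833104, plus strand): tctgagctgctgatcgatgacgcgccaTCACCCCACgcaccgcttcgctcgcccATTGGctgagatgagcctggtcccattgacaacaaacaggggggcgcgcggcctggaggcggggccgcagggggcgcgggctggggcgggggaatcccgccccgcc
SCAP (chr3:47475942-47476101, minus strand): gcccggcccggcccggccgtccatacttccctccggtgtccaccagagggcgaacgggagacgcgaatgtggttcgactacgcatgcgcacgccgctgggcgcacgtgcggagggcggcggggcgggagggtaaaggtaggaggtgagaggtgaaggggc
LSS (chr21:46228775-46228934, minus strand): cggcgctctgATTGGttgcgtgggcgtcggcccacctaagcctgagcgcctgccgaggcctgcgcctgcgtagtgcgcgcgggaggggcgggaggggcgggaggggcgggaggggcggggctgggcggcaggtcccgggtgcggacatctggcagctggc
MSMO1 (chr4:165327509-165327668, plus strand): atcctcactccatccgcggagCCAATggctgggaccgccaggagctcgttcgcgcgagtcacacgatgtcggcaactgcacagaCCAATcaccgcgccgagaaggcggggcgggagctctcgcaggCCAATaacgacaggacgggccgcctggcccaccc

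RefSeq windows of 250 bases before to 50 bases after the start were on hand for 26 of the 30 members, in 35 windows. ACAT2, FASN, FDFT1 and SQLE had no window and were not searched. TCACNCCAC was found in 1 of these 26 members (3.85%) and in 1.39% of the 27305 genes with a window. In SREBF2 it began 133 bases before the start, and a reversed CCAAT began 106 bases before it. CCAAT was found in 20 of 26 members (76.9%) against 39.7% of all genes, and GGGCGG in 25 of 26 (96.2%) against 48.3%. MSMO1 held 4 matches to CCAAT in its window, LSS held 1, and SREBF1 and SCAP held 0. Both strands were read, the 3 motifs were counted apart whether or not their matches shared letters, and a match is a run of letters and not a measured binding site.

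Of the 4 regulators, 3 had a difference below 0 and INSIG1 had one above 0, and the genes were not tested against each other. SREBF1 (chromosome 17, 17810399 to 17837002, minus strand, GENCODE v29 on GRCh38) had 35.0, 27.0 and 37.1 TPM in TC replicates 1 to 3 and 43.8, 56.3 and 47.5 TPM in TM. Every TC sample lay below every TM sample, and the difference was -0.57 (SE 0.17, adjusted p = 0.165). SREBF2 (chromosome 22, 41833079 to 41907308, plus strand) had 57.4, 51.0 and 50.3 TPM in TC and 70.6, 76.5 and 55.0 TPM in TM. Its groups overlapped only through TM replicate 3, and the difference was -0.33 (SE 0.16, adjusted p = 0.356). SCAP (chromosome 3, 47413694 to 47477126, minus strand) had 43.1, 52.4 and 41.4 TPM in TC against 59.9, 60.3 and 67.6 TPM in TM. Its groups did not overlap, TM replicate 3 was here the highest sample, and the difference was -0.45 (SE 0.14, adjusted p = 0.178). None of these passed the adjusted threshold of 0.05.

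INSIG1 is itself a well-known SREBP target. It stood at 70.3, 34.1 and 58.7 TPM in TC and at 54.3, 54.9 and 28.7 TPM in TM. The groups overlapped widely, with a 2.06-fold range within TC and a 1.91-fold range within TM, and the difference was 0.24 (SE 0.32, adjusted p = 0.786). STARD4, which moves cholesterol through the cytosol, had 20.1, 11.5 and 9.70 TPM in TC and 19.0, 15.7 and 7.12 TPM in TM, with a difference of 0.02. INSIG1 and STARD4 thus shared their highest sample (TC replicate 1) and their lowest (TM replicate 3), which SREBF1 and SCAP did not.

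**Figure D1:**
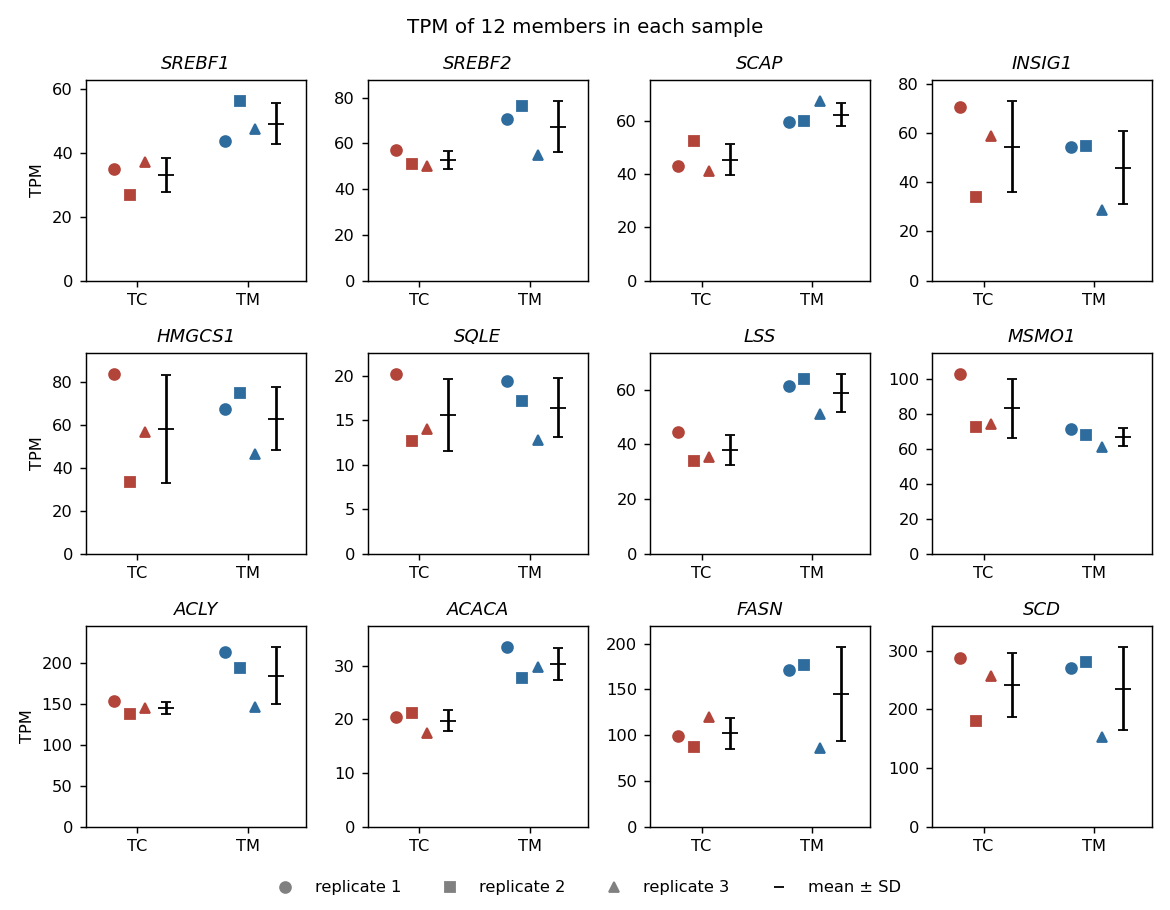
TPM (vertical axes, each from 0) of 12 members in TC (red) and TM (blue); symbols are replicates 1 to 3 and the black bar is the mean ± SD of 3 samples. In SREBF1, SCAP, LSS and ACACA all 3 red points lie below the blue ones, in MSMO1 all 3 lie above them, and the blue triangle, TM replicate 3, is the lowest blue point in INSIG1, HMGCS1, SQLE, LSS, MSMO1, ACLY, FASN, SCD and SREBF2.

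The first 7 enzymes lead from acetyl-CoA units to farnesyl diphosphate, and none of them had separate groups. ACAT2, the cytosolic thiolase that joins acetyl-CoA units, had 109, 79.1 and 110 TPM in TC and 107, 105 and 71.0 TPM in TM, a difference of 0.08. HMGCS1, which makes HMG-CoA, had 83.7, 33.6 and 56.9 TPM in TC and 67.4, 74.9 and 46.4 TPM in TM, a difference of -0.18. Its 2.49-fold range within TC was the widest of the members in that group. The kinases that phosphorylate mevalonate stood lower in TPM. MVK had 20.02, 19.4 and 24.4 TPM in TC and 33.4, 22.6 and 19.3 TPM in TM (difference -0.20), and PMVK had 27.1, 33.6 and 28.0 TPM in TC and 32.4, 30.5 and 22.9 TPM in TM (difference 0.05).

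MVD makes isopentenyl diphosphate and IDI1 isomerises it. MVD had 39.2, 41.7 and 48.1 TPM in TC and 60.3, 57.6 and 42.3 TPM in TM. TM replicates 1 and 2 lay above all TC samples and TM replicate 3 lay among them (difference -0.29). IDI1 had 49.8, 25.9 and 46.7 TPM in TC and 49.5, 38.2 and 20.3 TPM in TM, a 2.44-fold range within the margin (difference 0.21). FDPS, which joins the units to farnesyl diphosphate, was the most abundant cholesterol enzyme, with 203, 174 and 229 TPM in TC and 224, 229 and 149 TPM in TM. The core had a mean of 202 ± 27.2 TPM and the margin one of 201 ± 44.6 TPM (SD, n = 3 each), a difference of 0.03.

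FDFT1, SQLE and LSS turn farnesyl diphosphate into lanosterol. Squalene synthase, FDFT1, had 147, 125 and 163 TPM in TC and 154, 176 and 103 TPM in TM (difference 0.03). SQLE, the squalene epoxidase and a rate-setting step, had 20.2, 12.6 and 14.0 TPM in TC and 19.4, 17.1 and 12.8 TPM in TM. These groups overlapped over nearly their whole range, and the difference was -0.08 (SE 0.23, adjusted p = 0.910).

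LSS (chromosome 21, 46188141 to 46228824, minus strand) closes the sterol rings. It had 44.4, 34.0 and 35.5 TPM in TC and 61.4, 64.1 and 51.1 TPM in TM. The lowest TM sample lay above the highest TC sample, and the difference of -0.62 (SE 0.16) was the largest in size among the members, with an adjusted p = 0.124. Relative to the all-gene median it was -0.49. With any one sample left out it lay between -0.74 and -0.55, and after rescaling by median-of-ratios it was -0.42 (limma adjusted p = 0.283).

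The 8 enzymes from lanosterol to cholesterol held the sole member that was higher in every TC sample. MSMO1 (chromosome 4, 165327623 to 165343160, plus strand), the sterol methyl oxidase, had 103, 72.7 and 74.2 TPM in TC and 71.4, 67.9 and 60.8 TPM in TM. TC replicate 1 stood far above the rest and TC replicate 2 lay just over the highest TM sample. The difference was 0.30 (SE 0.16, adjusted p = 0.435), or 0.44 relative to the all-gene median.

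CYP51A1, the lanosterol demethylase, had 93.2, 70.0 and 76.9 TPM in TC and 88.7, 73.8 and 58.8 TPM in TM (difference 0.13). SC5D, a sterol desaturase, had 26.9, 16.9 and 18.6 TPM in TC and 20.3, 17.5 and 17.1 TPM in TM (difference 0.15). In both genes TC replicate 1 was the highest of the 6 samples and TM replicate 3 the lowest of its group.

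NSDHL removes a methyl group as carbon dioxide, and HSD17B7 reduces the resulting ketone. NSDHL had 23.1, 28.1 and 25.8 TPM in TC and 34.1, 27.2 and 25.3 TPM in TM (difference -0.16). HSD17B7 had 17.9, 14.8 and 20.6 TPM in TC and 19.0, 19.0 and 17.8 TPM in TM (difference -0.07), and its 1.068-fold range within TM was the narrowest of the members in that group. The isomerase EBP had 37.0, 46.8 and 50.7 TPM in TC and 43.6, 56.4 and 31.0 TPM in TM (difference 0.07). DHCR7, which makes cholesterol in the last step, had 55.1, 53.1 and 61.6 TPM in TC and 67.3, 74.8 and 52.6 TPM in TM (difference -0.18).

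TM7SF2, a sterol reductase, went against the other cholesterol enzymes in the margin. It had 11.7, 10.1 and 12.7 TPM in TC and 7.32, 9.70 and 22.7 TPM in TM. TM replicate 3 was the highest of the 6 samples where it was the lowest TM sample for the other 17 cholesterol enzymes, and the 3.10-fold range within TM was the widest of the members (difference -0.05).

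In the fatty acid branch ACLY, which supplies cytosolic acetyl-CoA, had 153, 138 and 144 TPM in TC and 213, 194 and 146 TPM in TM. TC values spanned 1.11-fold, TM replicate 3 lay within them and the other margin samples lay above (difference -0.33). ACACA (chromosome 17, 37084988 to 37406818, minus strand), the carboxylase that makes malonyl-CoA and commits carbon to fatty acids, had 20.4, 21.1 and 17.5 TPM in TC and 33.4, 27.6 and 29.8 TPM in TM. Its groups did not overlap and each spanned 1.21-fold. The difference was -0.60 (SE 0.16, adjusted p = 0.128), and -0.46 relative to the all-gene median.

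FASN, the synthase that makes palmitate, had 99.0, 86.6 and 120 TPM in TC. In TM it had 172, 177 and 85.5 TPM, so that TM replicate 3 was the lowest and the other margin samples were the highest of the 6. The core had a mean of 102 ± 17.0 TPM and the margin one of 145 ± 51.5 TPM (SD, n = 3 each), and the difference was -0.44 (SE 0.28, adjusted p = 0.5001). SCD, which puts the first double bond into palmitate and stearate, was the most abundant member. It had 288, 180 and 257 TPM in TC and 271, 282 and 154 TPM in TM, with a difference of 0.06 (SE 0.26, adjusted p = 0.943).

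ELOVL6 elongates palmitate, and FADS1 and FADS2 desaturate polyunsaturated fatty acids. ELOVL6, the least abundant member by its mean, had 10.1, 7.07 and 6.06 TPM in TC and 8.70, 11.3 and 5.47 TPM in TM (difference -0.10). FADS1 had 63.8, 54.2 and 48.2 TPM in TC and 56.5, 55.6 and 51.5 TPM in TM (difference 0.01). FADS2 had 129, 102 and 120 TPM in TC and 145, 147 and 106 TPM in TM (difference -0.17).

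Over the list, 0 of 30 members passed an adjusted p of 0.05, where 19 of 13861 genes (0.137%) did so. At an unadjusted limma p under 0.05, 4 members (13.3%) were lower in TC, namely SREBF1, SCAP, LSS and ACACA, against 14.2% of all genes, and 0 were higher against 1.93%. The same 4 had all TC values below all TM values (13.3% of members against 18.9% of all genes), and MSMO1 alone had them all above (3.33% against 3.28%). A difference below 0 was seen in 17 members (56.7%) against 67.0% of all genes. These shares lay near or below those of all genes. The median member difference was -0.08, which is 0.06 above the all-gene median. By role the median was -0.39 for the 4 regulators, -0.01 for the 18 cholesterol enzymes and -0.17 for the 7 fatty acid enzymes, which is -0.26, 0.13 and -0.03 relative to the all-gene median.

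**Figure D2:**
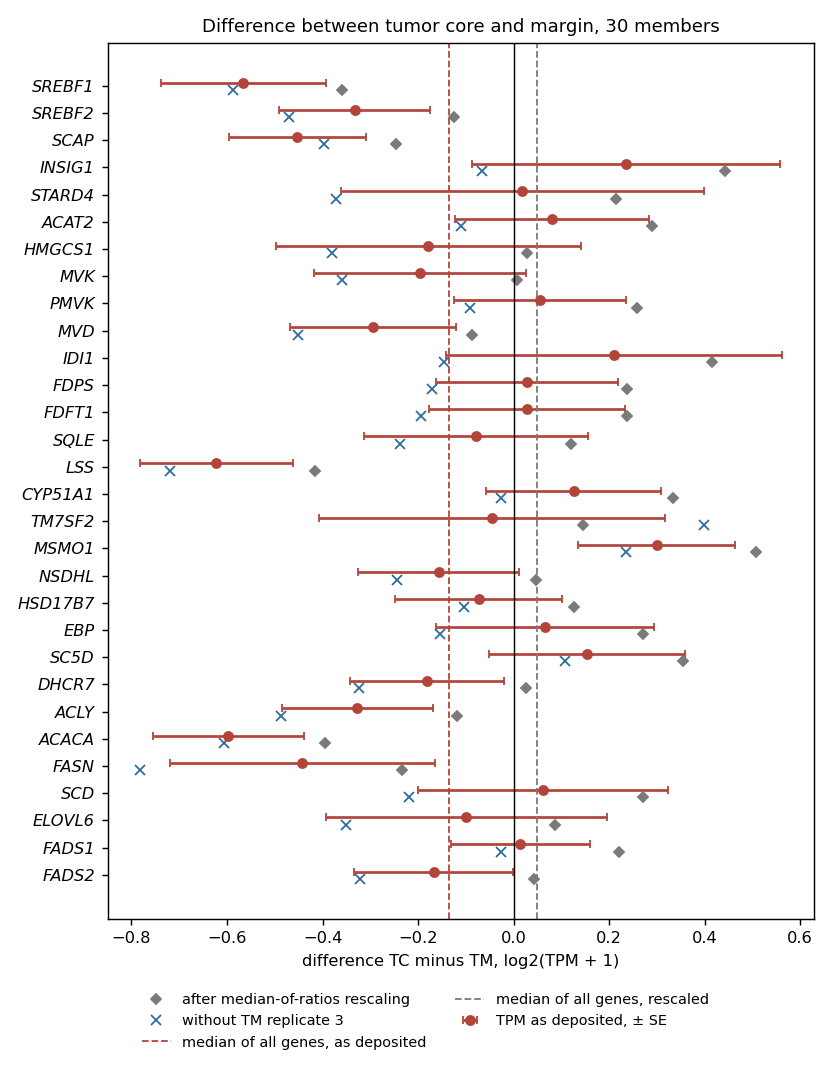
Log2(TPM + 1) in TC less that in TM (horizontal axis) for 30 members (vertical axis, ordered by role): red points with bars are values from the deposited TPM ± SE, gray diamonds are after median-of-ratios rescaling and blue crosses without TM replicate 3. Dashed lines mark the median of all genes (-0.14 as deposited, 0.05 rescaled); LSS, ACACA and SREBF1 lie farthest to the left and MSMO1 farthest to the right among the red points.

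The scale of the samples set the sign of many small differences. After median-of-ratios rescaling 9 of 30 differences had the other sign and 8 were below 0, and after quantile normalization 5 had the other sign. Relative to the all-gene median of each scale, 0 signs changed under either. Rescaling by median-of-ratios left LSS and ACACA (-0.40, adjusted p = 0.296) lower at an unadjusted p under 0.05, which is 6.67% of members against 6.66% of genes, and MSMO1 (0.51, adjusted p = 0.231) higher, which is 3.33% against 6.84%. SREBF1 then had -0.36 (adjusted p = 0.462) and SCAP -0.25 (adjusted p = 0.547). Quantile normalization gave 3 members lower (10.0% against 8.11%) and 1 higher (3.33% against 5.32%).

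Ratios within a sample do not depend on that scale. They are given for 2 pairs chosen after the values were seen, with no test. LSS makes lanosterol and MSMO1 acts on sterols made from it. MSMO1 over LSS came to 2.31, 2.14 and 2.09 in the core and to 1.16, 1.06 and 1.19 in the margin, which gives a mean of 2.18 ± 0.12 for the core and 1.14 ± 0.07 for the margin (SD, n = 3 each). SCD over FASN came to 2.91, 2.08 and 2.14 in the core and to 1.58, 1.59 and 1.80 in the margin. The separation of the first ratio was fixed by the choice of genes, since MSMO1 was higher and LSS lower in every TC sample. In the second the groups did not overlap either, though those of SCD and of FASN each did. Of the ratios between regulators, SREBF2 over SREBF1 ran from 1.35 to 1.89 in TC and from 1.16 to 1.61 in TM, and INSIG1 over SREBF2 from 0.668 to 1.23 in TC and from 0.521 to 0.769 in TM, both with overlap.

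The members shared their low samples. TM replicate 3 was the lowest of the TM samples for 26 of 30 members (86.7%) where it was so for 47.1% of all genes, and the lowest of all 6 samples for 15 of the 30 members against 21.0% of all genes. The exceptions in the margin were SREBF1, SCAP, ACACA and TM7SF2. TC replicate 2 was the lowest TC sample for 20 members (66.7% against 26.1%), and TC replicate 3, which was lowest in TC for 51.7% of all genes, was so for 0 of the 18 cholesterol enzymes. The median deviation of the members from each gene's own mean was -0.25 in TM replicate 3 and -0.19 in TC replicate 2, where that of all genes was -0.001 and -0.07. It was 0.20 in each of TM replicates 1 and 2, where all genes had 0.18 and 0.06. Summed over the 30 members, TPM came to 2099, 1657 and 2006 in TC, and in TM to 2307, 2320 and 1608. TM replicate 3 and TC replicate 2 were the low samples of their zones. The members answer to common regulators and are not independent of each other.

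**Figure D3:**
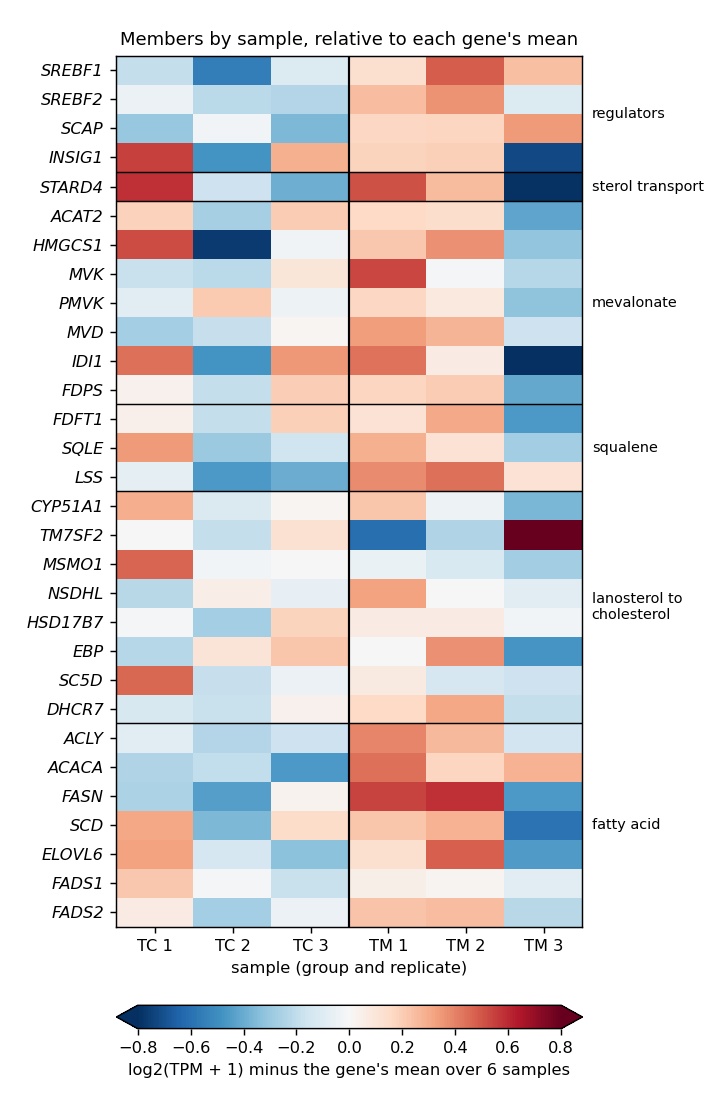
Each cell is a member's log2(TPM + 1) in 1 sample minus its mean over 6 samples, with rows ordered by role and columns by group and replicate; red is above and blue below the mean, and the colors saturate at 0.8. The columns of TC replicate 2 and TM replicate 3 are blue for most cholesterol and fatty acid enzymes, and TM7SF2 is dark red in TM replicate 3.

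**Figure D4:**
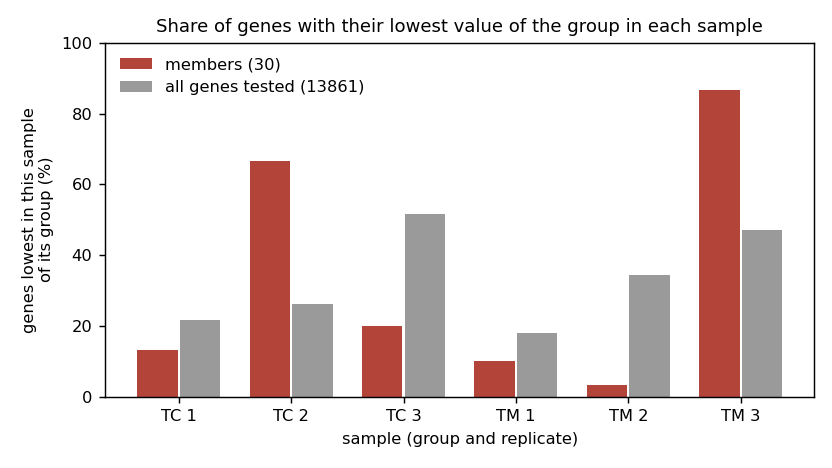
Share of genes (vertical axis, percent, from 0) whose lowest value of the group fell in the named sample, for the 30 members (red) and for all 13861 genes tested (gray). The red bar of TM replicate 3 reaches 86.7% and that of TC replicate 2 reaches 66.7%, against gray bars of 47.1% and 26.1%.

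TM replicate 3 was the lowest TM sample for 26 of 30 members (86.7% against 47.1% of all genes), so leaving it out raises the TM mean of most members. The shares without it follow in part from that and are given as description. Without TM replicate 3, 27 of 30 differences were below 0 (90.0% against 71.6% of all genes), and their median was -0.24, which is 0.05 below that of all genes. At an unadjusted limma p under 0.05, 8 members were then lower in TC (26.7% against 16.8%) and 0 higher (against 2.46%). These were SREBF1, SREBF2, SCAP, MVD, LSS, ACLY, ACACA and FASN, of which FASN had the largest difference (-0.78, adjusted p = 0.083). With TM replicates 1 and 2 left out in place of TM replicate 3, the median was 0.23, and 2 members were lower (6.67% against 8.72%) and 4 higher (13.3% against 5.74%). The higher ones were INSIG1, IDI1, FDFT1 and SCD, and the lower ones were SCAP and TM7SF2. No member passed an adjusted p of 0.05 either way, and the lone TM sample is assumed there to vary as the others do. SCAP had a difference of -0.40 without TM replicate 3 and of -0.56 with TM replicates 1 and 2 left out. Its groups did not overlap over the 6 samples, so a difference below 0 was fixed under both choices.

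TM replicates 1 and 2 also stood apart in markers of other cells. The summed TPM of 13 skeletal muscle markers reached 269.5 in TM replicate 1 and 675.9 in TM replicate 2, against 6.16 in the third and 8.65 to 12.2 in TC. The sum of 10 fibroblast markers reached 479 and 1007 in the same libraries, against 91.5 in the third and 66.3 to 226 in TC. COL1A1, COL1A2 and COL3A1 made up most of the latter sum, while LUM, PDGFRA and THY1 stayed under 1 TPM in every sample and DCN was listed at 0 in all but TM replicate 1. SREBF2, MVD, LSS, DHCR7, ACLY, FASN and FADS2 had their highest values in the same 2 samples. They were picked for that pattern, and its share over all genes was not counted. TM replicate 1 was the highest of the 6 samples for 16.7% of members against 28.2% of all genes. TM replicate 2 was so for 33.3% against 19.1%. The muscle and fibroblast sums were both larger in TM replicate 2 than in TM replicate 1. SREBF2, LSS, DHCR7, FASN and FADS2 were also higher there, whereas MVD and ACLY were lower. In TM replicate 3 only LSS of these genes lay above every TC sample. The part of muscle and fibroblast RNA in these values was not tested. Fewer cells of a type and less RNA per cell cannot be told apart in bulk tissue. Fat and milk-producing cells make lipids as well. In these tumors such cells belong to the mouse host, and the reads were aligned to the human genome. Marker values read from human genes therefore cannot show how much host tissue a sample held. The sum of 10 adipocyte markers was 0.66 to 0.96 TPM in TC and 1.35 to 1.64 TPM in TM (two-sided exact permutation p = 0.1, the smallest that 3 against 3 samples allow). Each of the 10 stayed under 1 TPM in every sample, and ADIPOQ, LEP, RETN and CIDEA were listed at 0 throughout. Of 7 mammary epithelial markers found, 4 were listed at 0 in every sample, and the sum was 0.63 to 2.06 TPM in TC and 1.67 to 3.24 TPM in TM (exact permutation p = 0.2). Endothelial sums were 28.2 to 33.6 TPM in TC and 30.7 to 42.7 TPM in TM, and macrophage sums were 96.2 to 110 TPM and 103 to 113 TPM (exact permutation p = 0.2 for each). ESAM alone held 23.2 to 35.6 TPM of the endothelial sums, with EMCN listed at 0 throughout, and CD68 held 84.8 to 94.2 TPM of the macrophage sums, with TYROBP, C1QA and C1QB listed at 0 throughout, so 1 gene sets most of each sum.

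To place the members among other lipid genes, 92 further genes in 6 lists were read from the fit, of which 87 passed the filter and 0 passed an adjusted p of 0.05. At an unadjusted limma p under 0.05, 7 of the 87 (8.05%) were lower in TC against 14.2% of all genes, and 0 were higher against 1.93%. These shares lie below those of all genes, and the genes named are given as single values. In the list of 14 SREBP processing factors and promoter partners 1 passed at that level: NFYC, a subunit of the CCAAT-binding NF-Y, had 29.8, 37.8 and 32.7 TPM in TC and 43.7, 49.95 and 45.0 TPM in TM (-0.46, SE 0.15, adjusted p = 0.181). Among 12 other genes of sterol and isoprenoid synthesis it was DHDDS, which extends farnesyl diphosphate to dolichol precursors. DHDDS had 18.7, 16.3 and 14.8 TPM in TC and 28.8, 27.7 and 29.04 TPM in TM (-0.75, SE 0.16, adjusted p = 0.084), and TM replicate 3 was here level with the other TM samples. In sterol uptake, export and storage 0 of 13 passed, and in other fatty acid synthesis 0 of 19.

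Of 12 glycerolipid and lipid droplet genes, DGAT1, which completes triglycerides, had 9.99, 10.99 and 10.9 TPM in TC and 14.9, 14.2 and 17.9 TPM in TM (-0.51, SE 0.18, adjusted p = 0.206). PNPLA2, the lipase that starts their breakdown, had 69.2, 68.3 and 76.2 TPM in TC and 81.4, 104 and 89.2 TPM in TM (-0.35, SE 0.14, adjusted p = 0.258). Neither gene's groups overlapped. Of 17 fatty acid oxidation genes 3 (17.6%, near the 14.2% of all genes) were lower in TC at that level. CPT1B, the muscle form of the mitochondrial fatty acid gate, had 3.54, 2.71 and 1.96 TPM in TC and 12.3, 8.12 and 12.3 TPM in TM (-1.67, SE 0.26, adjusted p = 0.066). It was as high in TM replicate 3, where the muscle marker sum was lowest, as in TM replicate 1. It was lower in TM replicate 2, where that sum was largest, and the part of muscle RNA in CPT1B was not tested. ACADVL had 273, 285 and 275 TPM in TC and 337, 371 and 418 TPM in TM (-0.43, SE 0.12, adjusted p = 0.142), and CPT2 had 5.54, 4.73 and 4.0 TPM in TC and 6.53, 7.12 and 7.33 TPM in TM (-0.48, SE 0.21, adjusted p = 0.308). After median-of-ratios rescaling 2 of the 87, DHDDS and CPT1B, were lower at an unadjusted p under 0.05 (2.3% against 6.66% of all genes) and 6 were higher (6.9% against 6.84%). The median difference over the 87 genes was -0.08, near the members' own.

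**Figure D5:**
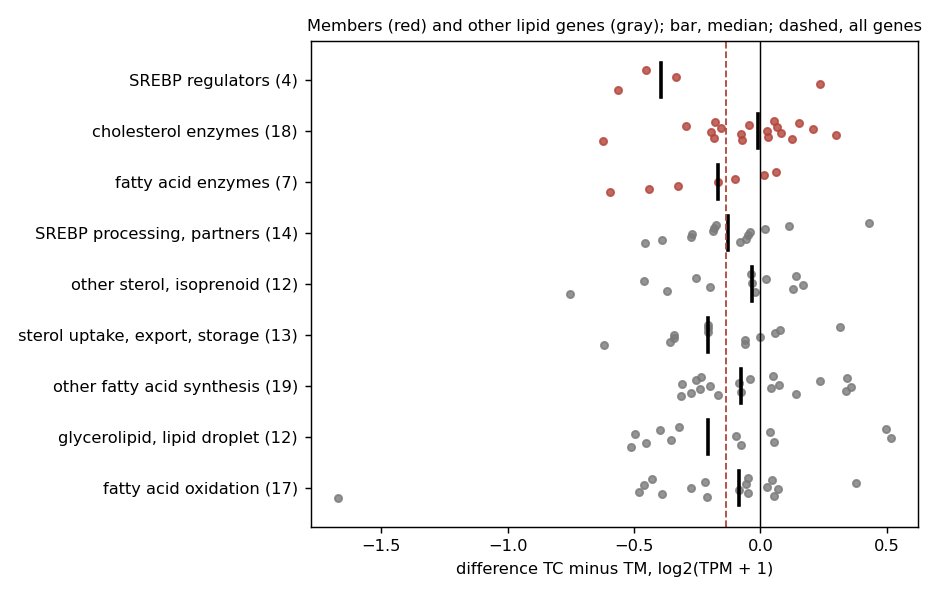
Log2(TPM + 1) in TC less that in TM (horizontal axis) for each gene of 3 member groups (red) and 6 other lipid lists (gray), with the number of genes in parentheses, black bars for the median of each list and a dashed line for the median of all genes. The medians lie between -0.39 for the SREBP regulators and -0.01 for the cholesterol enzymes, and the gray point farthest left is CPT1B at -1.67.

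Some member values may hold reads of other genes, since the use of strand in the counting is not stated. ACAT2 shares 397 exon bases with TCP1 on the opposite strand (mean 182 TPM), which is 9.23% of its exon bases. SREBF1 shares 6.92% with RAI1 (14.4 TPM), MVK 4.72% with MMAB (34.7 TPM), and FADS1 and FADS2 share 490 bases with each other. ACLY shares 156 bases, 2.99% of its exon bases, with the antisense gene ENSG00000274630 (129 TPM). LSS and ACACA share none with a gene above 1 TPM. Pseudogenes named after IDI1, FDPS, CYP51A1, HSD17B7 and SCD are annotated, and their highest mean was 0.637 TPM.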

How the data were processed

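RNA-seq of 3 TC and 3 TM samples was analysed from a gene matrix in TPM that the authors deposited. Per the study's methods and the submitters' processing notes, trimming used SeqPrep and Sickle, alignment to hg38 used HISAT2, and StringTie and RSEM gave transcripts and gene values. The annotation release is not given in the sources used here. TPM keeps no read counts, so depth is unknown, intervals for counting error are not given, and DESeq2, the study's own model, which needs counts, was not run. The columns sum to about 1000000 TPM, and that of TM replicate 3 to 994381 TPM. There were 0 columns of other samples.

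Groups and replicate numbers come from the sample titles. Values were taken as log2(TPM + 1). Annotated genes that reached 1 TPM in 3 or more of the 6 samples (13861 of 60671) were fitted with limma 3.58.1 in R 4.3.3, with a mean-variance trend, no covariate and two-sided tests, followed by Benjamini-Hochberg adjustment over all genes tested. The log2(TPM + 1) scale understates changes of low genes. The script was tested on simulated data. Summed markers were compared by exact permutation tests in Python 3.11.15. Positions come from GENCODE v29, and promoters from RefSeq on GRCh38.p14.

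All 30 members are named. Full statistics are given for the regulators, for SQLE, ACACA, FASN and SCD, and for members with an unadjusted p under 0.05 or with groups that do not overlap. From each other lipid list the genes named are those with the lowest unadjusted p under 0.05, at most 3. The members and lists were chosen with earlier results of these data known, so no list was tested as a set. Alternatives were another pseudocount (0.1), no filter or a mean of at least 5 TPM, 2 rescalings, removal of mitochondrially encoded and ribosomal protein genes, other moderation settings, a replicate block and each sample left out.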

Additional observations from a re-analysis of the deposited data

How the results depend on the processing

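No member passed an adjusted p of 0.05 under any of the alternatives run, in limma throughout. The number of members lower in TC at an unadjusted p under 0.05 was 4 as reported and 2 after median-of-ratios rescaling. It was 4 to 8 with each sample left out, where 8 is without TM replicate 3. With mitochondrially encoded genes removed, SREBF2 and ACLY were lower at that level besides the 4 reported, and the median of all genes was -0.18. The number higher was 0 as reported and 1 after quantile normalization and after median-of-ratios rescaling. With TM replicates 1 and 2 left out together, an alternative chosen after seeing the data, the median member difference was 0.23, or 0.29 relative to all genes. The calls over all genes ranged from 1 to 47 (19 as reported, 195 with TM replicates 1 and 2 left out). Of the single member differences under the alternatives, 521 kept their side of the unadjusted threshold, 6 lost it and 13 gained it, and in 0 cases did a difference past that threshold change sign; the causes were not tested. With a replicate block for equal replicate numbers, 0 members were called, 4 were lower at an unadjusted p under 0.05, the smallest adjusted p was 0.242 (LSS), and the calls over all genes dropped from 19 to 1. Same-numbered samples had deviations correlated at 0.21, -0.12 and -0.16, not every sample correlated best with its own number, and so the numbers were not taken to pair the samples. The 3 samples per group and an unknown depth limit what could be detected.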
